A study of Mus musculus with 33 samples.

Results

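Esr1 encodes oestrogen receptor alpha, a nuclear receptor that binds oestrogens in the cytoplasm and nucleus and then acts at DNA as a transcription factor. It works with coactivators and corepressors, is held ready for hormone by HSP90 chaperones, and shares its ligand with Esr2 (oestrogen receptor beta) and the membrane receptor Gper1. In bone marrow, oestrogen is known to restrain early B lymphopoiesis, and haematopoietic stem cells, macrophages and mesenchymal cells are known to carry the receptor. Esr1 is 1 of the 32285 genes listed in every matrix and was found by its symbol, with the identifier ENSMUSG00000019768. In the mouse genome build mm10 it lies on the plus strand of chromosome 10, from 4611593 to 5005614. The gene spans 394.022 kb, only 1.17% of the annotated genes span more, and GENCODE lists 10 transcripts for it. No other annotated gene overlaps it.

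The cells came from mice in which SAMENT, a method that tags the neighbours of injected tumour cells with biotin, had been run, and cells with and without biotin were then separated by sorting (biotin positive and biotin negative). One experiment used an intracardiac injection and gave 4 positive and 4 negative samples per organ (bone, brain, liver and lung), read from the 3′ end of transcripts. The other used an injection named IIA and gave bone only, as 6 positive and 6 negative hashtagged samples read from the 5′ end and pooled in 1 matrix. The labels gave no strain, sex, age, tumour line or hormonal state, and did not say whether samples were separate animals. The p-values therefore measure the spread between these samples, which may be technical in part. All groups carried the injection and the labelling substrate, and no uninjected sample was analysed here.

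After filtering, 55366 intracardiac cells and 22362 IIA cells were kept. Total UMIs per sample ran from 482617 in biotin positive liver replicate 4 to 44834665 in biotin negative bone replicate 4. Esr1 was sparse in the intracardiac cells, where 993 Esr1 UMIs fell in 870 cells (1.57%). It was more frequent in the IIA cells, where 4761 UMIs fell in 2395 cells (10.7%) and 21 cells held at least 10 each. The difference between the 2 experiments cannot be told apart from the end of the transcript that was read, from the count software (cellranger 6.1.2 and 7.1.0) or from how intronic reads were counted, which is not given. Genes spanning at least 100 kb took 2.86 to 6.46% of UMIs in the intracardiac samples and 8.57 to 10.7% in the IIA samples. For that reason the experiments are described separately.

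In bone of the IIA experiment, Esr1 was higher in the biotin positive than in the biotin negative cells. The negative samples held 23.6, 24.7, 20.4, 20.4, 15.4 and 17.9 counts per 1000000 UMIs (CPM) for injections 1 to 6, a mean of 20.4 ± 3.46 (SD, n = 6). The positive samples held 64.1, 24.9, 31.2, 67.0, 82.4 and 63.8 CPM, a mean of 55.6 ± 22.5 (SD, n = 6). Every positive sample was above every negative one, although the positive sample of injection 2 exceeded the highest negative sample by a small margin. The sorts also stood apart in other measures, since the mitochondrial share of UMIs was 0.554 to 0.930% in the negative and 0.988 to 2.54% in the positive samples, and genes spanning at least 100 kb took 8.57 to 9.67% and 10.2 to 10.7%. The log2 fold change was 1.21 (SE 0.26), with an adjusted p of 0.00211 by edgeR's quasi-likelihood test. This call stands against a background in which 50% of the 12625 tested genes were called in the same comparison, 26.9% of them as higher in the positive cells. Esr1 stayed past the threshold without any single sample, with log2 fold changes of 1.05 to 1.36. With at most 5% mitochondrial UMIs per cell it was 1.07, with an adjusted p of 0.00411 by edgeR.

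**Figure D1:**
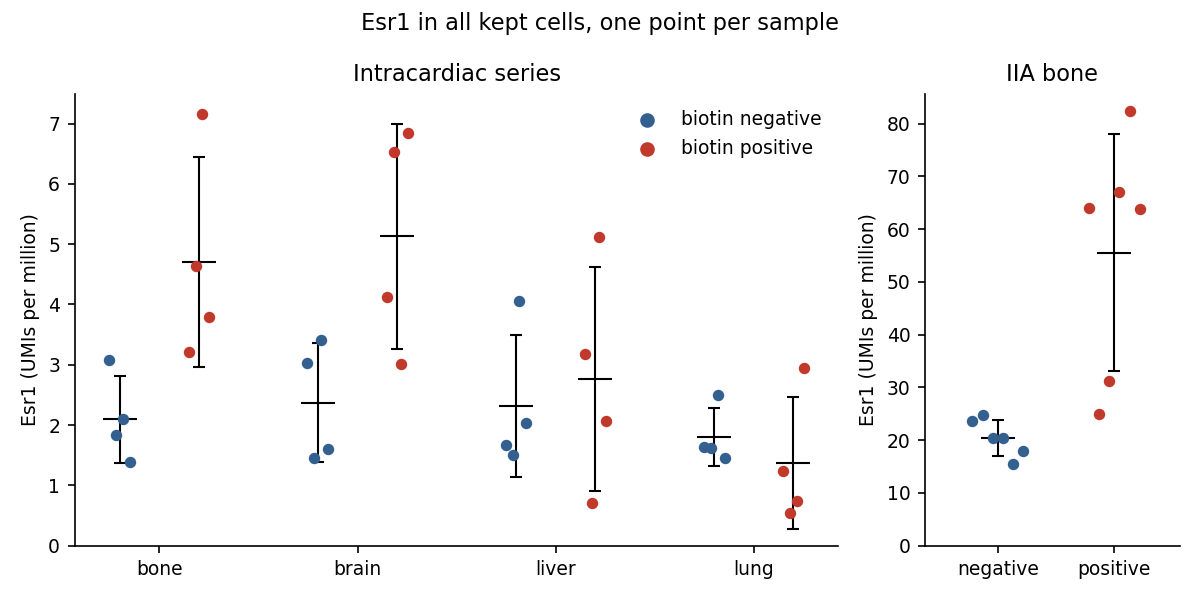
Esr1 CPM in all kept cells, with one point per sample, the mean as a bar and the SD as whiskers, for the intracardiac organs on the left (4 samples a group) and IIA bone on the right (6 samples a group), with separate vertical scales. The IIA positive samples sit between 24.9 and 82.4, all above the negative samples at 15.4 to 24.7, while positive and negative intracardiac samples overlap in brain, liver and lung.

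Most Esr1 UMIs of the pooled IIA positive cells came from 4 clusters, of which 2 were named granulocyte precursors. By injection these clusters held 80.9, 19.8, 49.0, 94.4, 96.3 and 93.7% of the Esr1 UMIs of the positive sample (injections 1 to 6), so in injections 2 and 3 they did not hold most. Pooled, they held 89.9%, and 76.0% without injection 5, which gave 2299 of the 3361 positive Esr1 UMIs. Cluster 8 was led by the neutrophil granule genes Elane, Prtn3 and Mpo, which mark promyelocytes, and cluster 14 by the heat shock gene Hspa1b together with Elane. Cluster 15 was led by the long genes Cacnb2, Glis3 and Rad51b and cluster 9 by Gria3, and both stayed without a cell type name. Cluster 8 held 23.7% of the positive cells and 44.6% of their Esr1 UMIs, and cluster 15 held 6.55% of the cells and 29.1% of the Esr1 UMIs. Without injection 5 cluster 8 held 11.6% of the positive cells and 34.7% of their Esr1 UMIs, and cluster 15 held 4.04% and 31.8%. In the negative cells the same clusters were rare, and cluster 8 held 1.3% of the cells and 7.0% of the Esr1 UMIs. Cluster 15 held 3.14%, cluster 9 held 5.43% and cluster 14 held 1.79% of the negative Esr1 UMIs, and the 4 together held 7.36 to 29.04% in single negative samples. There the largest single source was cluster 23, B precursors led by Vpreb1 and Igll1, with 0.92% of the cells and 14.4% of the Esr1 UMIs. It was followed by the classical monocytes of cluster 21, with 7.53% of the cells and 12.9% of the Esr1 UMIs.

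**Figure D2:**
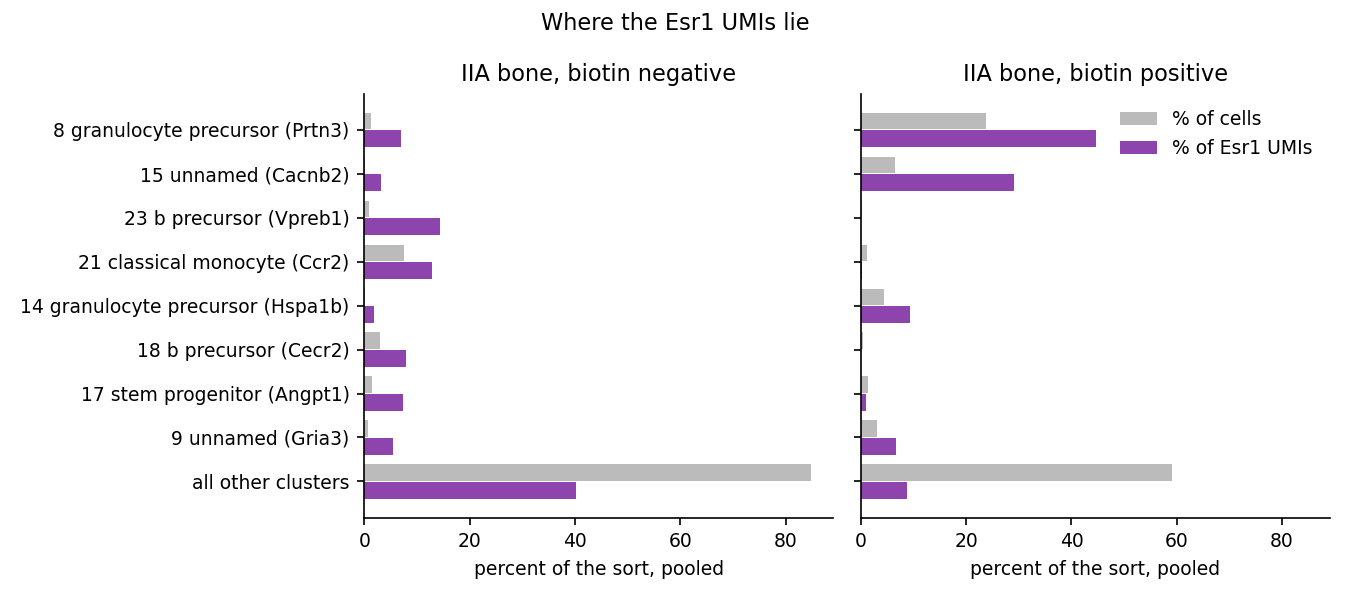
Share of kept cells (grey) and of Esr1 UMIs (purple) in the 8 IIA clusters with the largest share of Esr1 UMIs in either sort, and in all others together, pooled over the 6 negative samples (left) and the 6 positive samples (right), in percent. Clusters 8 and 15 held 44.6% and 29.1% of the Esr1 UMIs of the positive sort, against 7.0% and 3.14% in the negative sort.

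The share of cells in these 4 clusters differed widely among positive samples. It ran from 1.3 to 4.33% in the negative samples, with a median of 2.11%. In the positive samples it ran from 3.71 to 62.4%, with a median of 29.5%. Injection 5 alone gave 838 of the 1158 positive cells of cluster 8 and 209 of the 320 positive cells of cluster 15. Outside the 4 clusters Esr1 stood at 18.2 ± 3.52 CPM in the negative and 17.5 ± 6.74 CPM in the positive samples (SD, n = 6 each), and the ranges overlapped. Refitted without the 4 clusters, the log2 fold change of Esr1 was -0.14, with an adjusted p of 0.615 by edgeR, so the call on all cells was lost. Without cluster 15 alone it was 0.83, with an adjusted p of 0.00999. Giving each cluster its Esr1 level of the negative sort and the UMI make-up of the positive sort gave 43.0 CPM, between the pooled 19.8 CPM of the negative and 67.3 CPM of the positive sort.

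Within cluster 8 itself, Esr1 was also higher in the biotin positive cells. Of the samples with at least 20 cells, the negative ones held 65.6, 46.3, 12.2, 28.4 and 33.2 CPM (injections 1, 3, 4, 5 and 6) and the positive ones 73.2, 73.8, 61.7, 71.3 and 61.8 CPM. The positive sample was higher in each of these 5 injections, but the negative sample of injection 1 reached into the positive range. Injection 2, left out with 17 negative and 14 positive cells, had the opposite order, at 67.5 CPM in the negative and 52.9 CPM in the positive sample. The log2 fold change was 0.78 (SE 0.20), with an adjusted p of 0.00737 by edgeR, where 10.8% of 6881 genes were called and 4.26% were called as higher. With injection 2 included it was 0.67, with an adjusted p of 0.0169 by edgeR. Leaving out any one of the 10 samples kept the call, at log2 fold changes of 0.64 to 1.05. The highest adjusted p among these omissions was 0.0493 by edgeR, close to the threshold. Median depths of cluster 8 ran from 8760.5 to 10784 UMIs per cell in these negative samples and from 14751 to 17927.5 in the positive ones. Thinned to 2000 UMIs per cell, 12.8% ± 3.29 of the positive and 5.77% ± 4.39 of the negative cells of cluster 8 held an Esr1 UMI (SD, n = 5 each, exact permutation p = 0.0317, adjusted p = 0.0741 over 7 clusters, two-sided). These negative shares rest on 11 cells with a UMI. An exact permutation test of the CPM in cluster 8 gave p = 0.0238, and 0.300 after adjustment over 42 cluster comparisons, so it failed the correction.

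**Figure D3:**
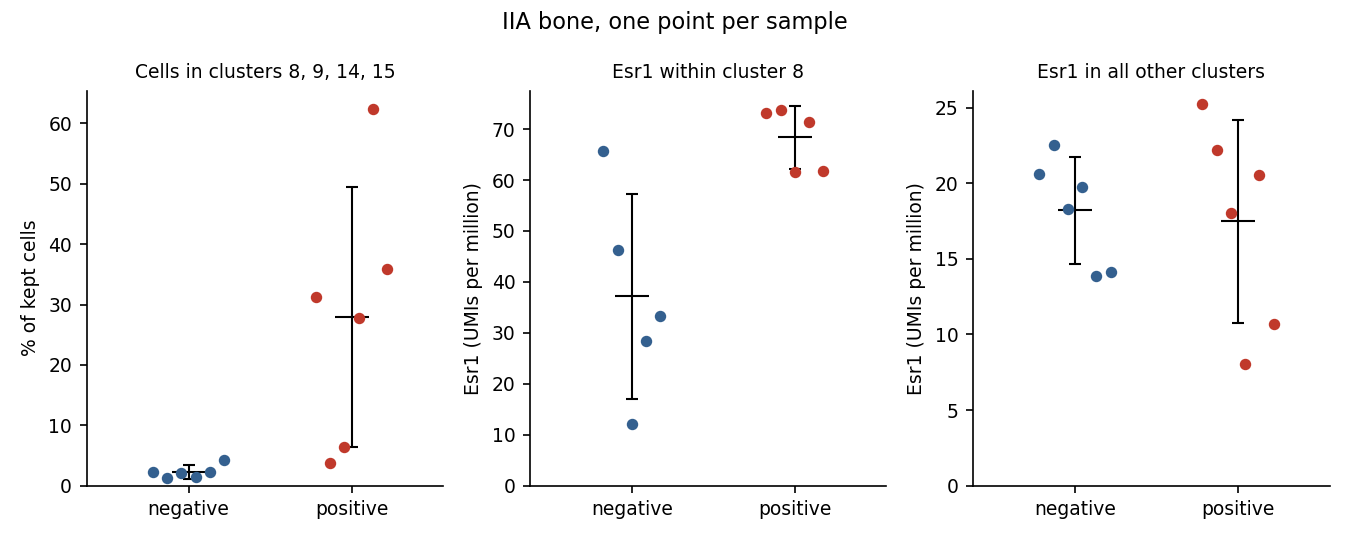
IIA bone, with one point per sample, the mean as a bar and the SD as whiskers: the share of kept cells in clusters 8, 9, 14 and 15 (left), Esr1 CPM within cluster 8 for samples with at least 20 cells (middle), and Esr1 CPM in all other clusters (right). The share of cells ran up to 62.4% in the positive samples and to 4.33% in the negative ones, while Esr1 outside these clusters overlapped between the sorts.

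The long-gene cluster 15 had the highest Esr1 level of any cluster, at 349 CPM (exact Poisson 95% interval 327 to 371, counting error only), and 77.9% of its 348 cells held an Esr1 UMI. The 4 positive samples with at least 20 of its cells lay within 355 to 361 CPM. The negative sort had 28 such cells, too few for a level per sample, and pooled they gave 226 CPM (164 to 303.1). Genes spanning at least 100 kb took 30.7% of the UMIs of cluster 15 and 8.61% of those of cluster 8, and the median mitochondrial share was 5.88% and 3.14%. Per 1000000 UMIs of these long genes, Esr1 stood at 1137 in cluster 15, 773 in cluster 8, 770 in cluster 9, 758 in cluster 14 and 2085 in B precursor cluster 23. With the UMIs of long genes as the total of each sample, the log2 fold change over all IIA cells was 1.27, with an adjusted p of 0.00197 by edgeR. Markers of epithelial tumour cells were near 0 in these clusters: the 10 markers together reached 4.30 CPM in cluster 8, 4.44 in cluster 9, 3.49 in cluster 14 and 3.07 in cluster 15, and 5 to 7 of the 10 were at 0.

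The class of all granulocyte precursors joins clusters with unlike Esr1 levels in unlike shares. Its log2 fold change was 1.75 (SE 0.17), with an adjusted p of 1.74e-08 by edgeR, where 65.0% of 8959 genes were called. The negative samples held 6.08 to 19.4 CPM and the positive ones 43.5 to 70.1 CPM, without overlap. Cluster 1, led by Fcnb, a gene of later neutrophil precursors, held most of the negative cells of the class and had 6.29 CPM, whereas cluster 8 had 66.6 CPM and held most of the positive cells. In cluster 1 alone the log2 fold change was 0.55 (SE 0.48), with an adjusted p of 0.652 by edgeR, where 3.99% of 7338 genes were called. In the neutrophil class Esr1 was low in both sorts, at 5.24 to 8.92 CPM in the negative and 0 to 9.56 CPM in the positive samples, with a log2 fold change of -0.13 (SE 0.36) and an adjusted p of 0.883 by edgeR, where 8.76% of genes were called.

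Macrophages of the IIA bone carried Esr1 at an intermediate level. Cluster 0, with the chemokine gene Pf4 and the complement gene C1qb among its leading genes, is the macrophage cluster that held 14.7% of the positive and 2.15% of the negative cells. Its positive samples with at least 20 cells held 21.5, 27.95, 22.9 and 45.9 CPM (injections 1, 2, 3 and 5), and its negative samples held 0, 3.53, 8.87, 16.2 and 8.10 CPM (injections 1, 2, 3, 5 and 6). These positive samples were above all these negative ones, and higher in 4 of 4 injections with both sorts. The 3 samples under 20 cells overlapped, since negative injection 4 held 1 UMI (17.3 CPM), positive injection 6 held 1 (9.47 CPM) and positive injection 4 held none. The difference of 22.2 CPM had an exact permutation p of 0.00794, the smallest that 4 and 5 samples allow, and an adjusted p of 0.300 over 42 cluster comparisons, so it failed the correction. The negative samples together held 13 Esr1 UMIs in this comparison and the positive ones 136. Leaving out each sample gave differences of 16.8 to 24.9 CPM. Thinned to 2000 UMIs, 6.01% ± 5.58 of the positive (n = 4) and 0.890% ± 1.27 of the negative cells (n = 5) held a UMI, with an exact permutation p of 0.0317 and an adjusted p of 0.0741. Macrophage cluster 20 had the opposite order when pooled, at 57.0 CPM in the negative cells (8 UMIs in 42 cells) and 20.6 CPM in the positive cells (9 UMIs in 113 cells). The whole macrophage class, which adds cluster 20, held 12.7 to 39.5 CPM in the positive and 0 to 46.5 CPM in the negative samples (exact permutation p = 0.262, n = 6 each). There the negative sample of injection 4 was the highest of all 12 with 7 Esr1 UMIs in 44 cells, and without one sample or another the p ran from 0.00866 to 0.478. In the edgeR fits of both the class and cluster 0, Esr1 did not pass the low-count filter.

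Over the cell classes of the IIA bone, Esr1 was highest in the unnamed cluster 15, followed by B precursors and by stem and progenitor cells. Means over samples with at least 20 cells were 359 ± 2.50 CPM in cluster 15 (SD, n = 4), 150 ± 27.7 in B precursors (n = 6) and 64.6 ± 39.3 in stem and progenitor cells (n = 6). The 6 B precursor samples, all biotin negative, held 128 to 204 CPM, above every other named class. In the positive sort, B precursor clusters 18 and 23 had 19.6 and 25.5 CPM, from 1 and 2 Esr1 UMIs in 17 and 14 cells. Stem and progenitor cells, pooled, had 66.4 CPM in the negative and 27.9 CPM in the positive sort. From stem and progenitor cells on, each class lay within 1 SD of the next one down: cluster 9 at 40.6, basophils and mast cells at 39.6, granulocyte precursors at 35.3 (54.2 with clusters made without Esr1 and the pathway lists, and 54.1 with coarser clusters), plasmacytoid dendritic cells at 33.9, B cells at 32.5, stromal fibroblasts at 24.0, classical monocytes at 20.2, macrophages at 19.0 and T cells at 17.5 CPM. The neutrophil class had 6.01 ± 2.72 CPM (n = 12) and nonclassical monocytes 5.57 ± 7.69 CPM (n = 5). These means join the sorts in unlike shares, and the order of classes was not matched for sort. Granulocyte precursors averaged 56.3 CPM in the positive and 14.3 CPM in the negative samples. Cluster 9 had 8.57 and 40.9 CPM in the negative samples of injections 5 and 6, and 72.4 CPM in the positive sample of injection 5. The samples of cluster 15 were all biotin positive. Between the 2 B precursor clusters, cluster 23 (Vpreb1, Igll1) had 245 CPM and cluster 18 had 80.3 CPM, while B cells had 35.5 CPM pooled.

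**Figure D4:**
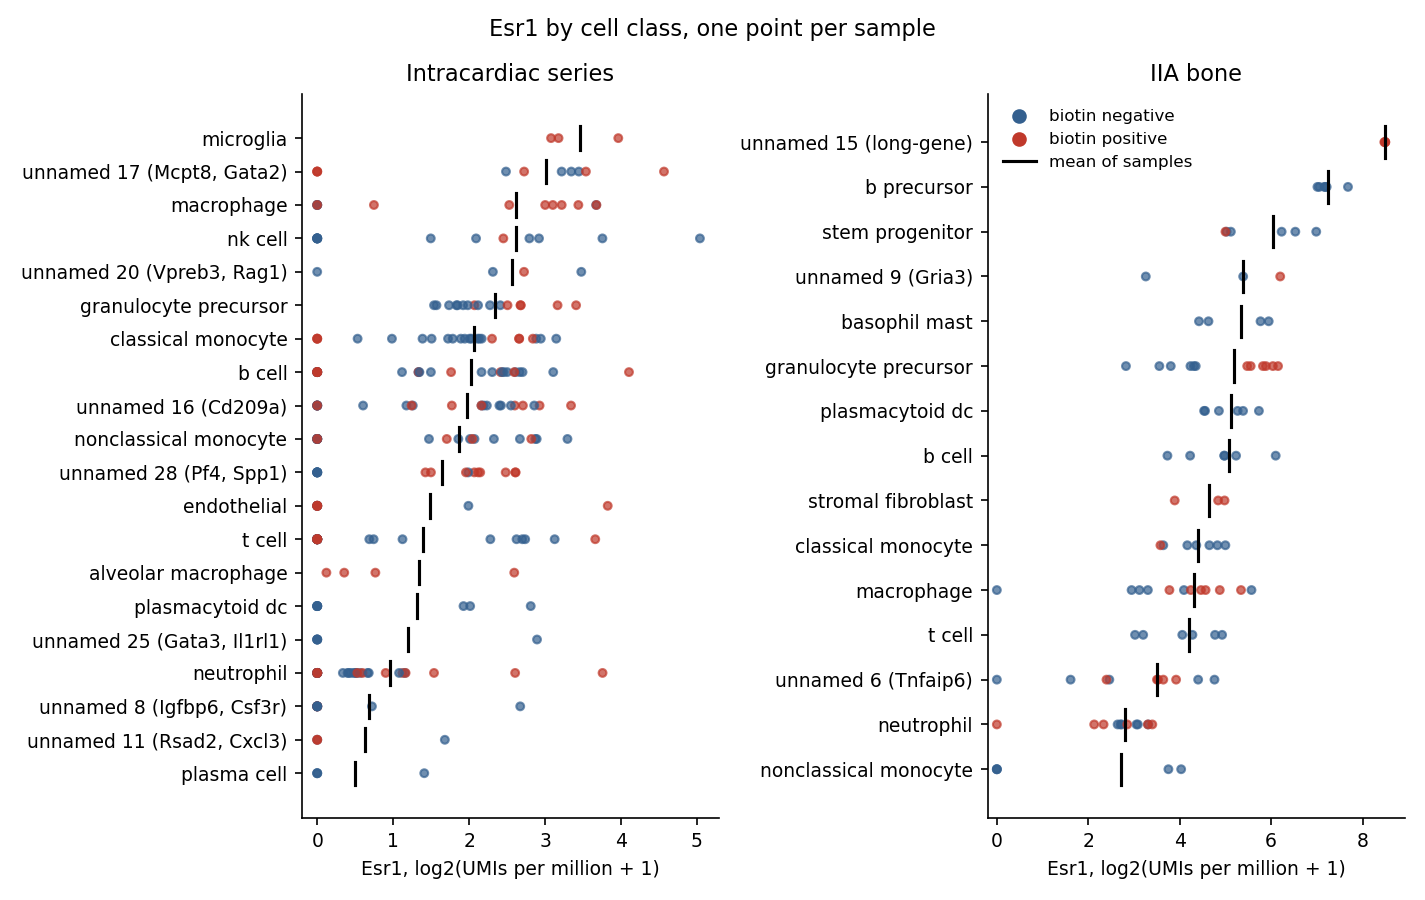
Esr1 by cell class on a log2(CPM + 1) axis, with one point per sample that has at least 20 cells of the class, blue for biotin negative and red for biotin positive, and a black bar at the mean of the samples, for the intracardiac series (left) and IIA bone (right). Cluster 15 at 359 CPM and B precursors at 150 CPM stand above the other IIA classes, and the 2 panels have separate scales.

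With every cell thinned to 2000 UMIs, the same classes of the IIA bone stood out. Of the cells deep enough, 40.9% of cluster 15 (exact binomial 95% interval 35.6 to 46.3), 20.3% of B precursors (16.2 to 25.0), 12.5% of cluster 9 (8.67 to 17.1) and 9.47% of stem and progenitor cells (6.34 to 13.5) held an Esr1 UMI. The neutrophils, taken as the background class, gave 1.08% (0.842 to 1.36) of 6594 cells. Among erythroid cells 0 of 166 held one, which allows a share of up to 1.81%, and T cells gave 2.94% (1.69 to 4.73). Classical monocytes at 3.78% (2.81 to 4.96) and macrophages at 4.08% (2.96 to 5.48) had intervals above that of the neutrophils. Nonclassical monocytes at 0.505% (0.0128 to 2.78) did not. Cells were pooled over samples and both sorts, so these intervals leave out the spread between samples. In macrophage cluster 0 the thinned shares of single samples ran from 0 to 13.9%. Median depths before thinning were 2539 UMIs in neutrophils, 1914 in B precursors, 4487.5 in macrophages and 7858 in cluster 15. Cells under 2000 UMIs were left out, which removed 28.9% of the negative and 21.3% of the positive cells.

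Over all IIA cells the thinned share was 7.99% ± 3.21 in the positive and 2.81% ± 0.580 in the negative samples (SD, n = 6 each). It was higher in 6 of 6 injections. An exact permutation test, which did not pair the samples by injection, gave p = 0.00433 (adjusted p = 0.0216 over 5 comparisons, two-sided). The unthinned share was 22.99% in the positive and 5.55% in the negative samples. In the granulocyte precursor class the thinned share was 9.11% ± 1.95 in the positive and 1.70% ± 0.914 in the negative samples, with an exact permutation p of 0.00216, the smallest that 6 and 6 samples allow, and an adjusted p of 0.0519 over 24 class comparisons.

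**Figure D5:**
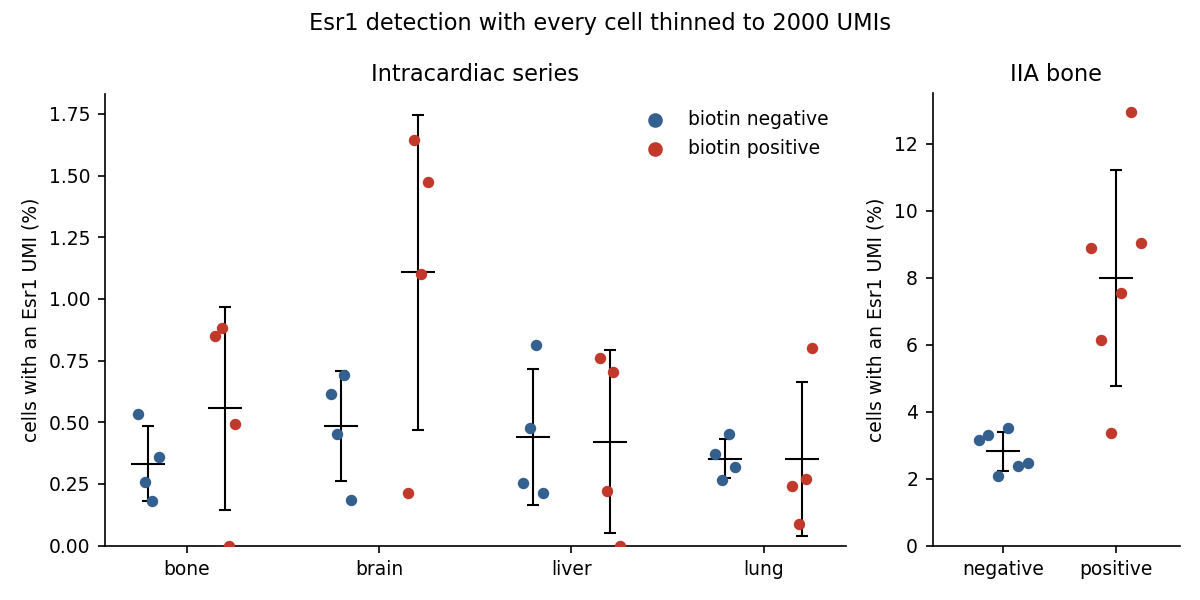
Share of cells with at least 1 Esr1 UMI, in percent, after every cell was thinned to 2000 UMIs and shallower cells were left out, with one point per sample, the mean as a bar and the SD as whiskers, for the intracardiac organs (left) and IIA bone (right), on separate scales. The IIA positive samples lie between 3.36 and 12.96% and the negative ones between 2.07 and 3.50%, while no intracardiac sample exceeds 1.64%.

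None of the intracardiac organs showed a change of Esr1 past the threshold. In bone the negative samples held 3.08, 1.83, 2.09 and 1.38 CPM for replicates 1 to 4 and the positive ones 3.21, 4.64, 7.15 and 3.79 CPM. All 4 positive samples were above the negative ones, the lowest by a small margin. The log2 fold change was 1.04 (SE 0.31), with an unadjusted p of 0.00772 and an adjusted p of 0.620 by edgeR, which called 0 of 12533 genes in this comparison (0%), while DESeq2 called 53. Bone positive replicate 3, with 620 cells, carried the most Esr1, and without it the log2 fold change was 0.78. Leaving out the granulocyte precursor clusters brought it to 0.57, with an adjusted p of 1.00 by edgeR.

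In brain the negative samples held 3.04, 1.45, 3.41 and 1.60 CPM and the positive ones 4.12, 6.54, 3.01 and 6.85 CPM. These groups overlapped through positive replicate 3, which rests on 4 Esr1 UMIs. The log2 fold change was 0.90 (SE 0.35), with an adjusted p of 0.196 by edgeR, where 2.90% of 11064 genes were called. In liver the negative samples held 1.66, 1.497, 4.05 and 2.04 CPM and the positive ones 3.18, 0.713, 5.11 and 2.07 CPM, the last from a single UMI in 94 cells. The groups overlapped throughout, with a log2 fold change of 0.08 (SE 0.61), an adjusted p of 0.974 and 0 of 11854 genes called by edgeR (0%), while DESeq2 called 431. In lung the negative samples held 1.64, 1.61, 2.50 and 1.45 CPM and the positive ones 1.23, 0.547, 0.735 and 2.95 CPM. Of the positive lung samples 3 of 4 were below all negative ones, and replicate 4 was above them. The log2 fold change was -0.76 (SE 0.53), with an adjusted p of 0.335 by edgeR, where 18.0% of 12331 genes were called. Without lung positive replicate 4 it was -1.33, with an adjusted p of 0.0612.

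The effect of the sort was also compared between organs in 1 fit over all 32 intracardiac samples. In lung it was lower than the mean of the other organs by a log2 difference of -1.35 (SE 0.56), with an unadjusted p of 0.0223 and an adjusted p of 0.227 by edgeR, where 2.48% of 13963 genes were called. In bone it was higher by 0.98 (SE 0.53, adjusted p = 0.686 by edgeR, 0% called), in brain by 0.70 (SE 0.54, adjusted p = 0.621, 0.258% called), and in liver the difference was -0.33 (SE 0.57, adjusted p = 1.00, 0% called). None passed the threshold. Among biotin negative cells the organs differed from the mean of the others by log2 values of -0.36 in lung to 0.22 in brain, and all 4 adjusted p-values were at least 0.637 by edgeR (4.93% called in lung, 0.0573% in brain, 9.37% in bone and 1.04% in liver). The mean levels of the negative samples were 2.37 ± 0.992 CPM in brain, 2.31 ± 1.18 in liver, 2.10 ± 0.717 in bone and 1.80 ± 0.475 in lung (SD, n = 4 each).

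Granulocyte precursors were the deepest cells of the intracardiac bone and carried much of its Esr1. Their clusters held 36.9 to 67.7% of the Esr1 UMIs and 26.3 to 52.8% of all UMIs of the negative bone samples. In the positive bone samples they held 35.7 to 97.1% of the Esr1 UMIs and 35.4 to 87.1% of all UMIs. In cluster 13, led by Elane and Mpo, the negative samples with at least 20 cells held 5.86, 4.62 and 3.12 CPM (replicates 2 to 4) and the positive ones 8.47, 7.101, 8.11 and 7.44 CPM, without overlap. Negative replicate 1, left out with 9 cells, held 6 Esr1 UMIs, or 18.1 CPM, above all of them. The log2 fold change was 0.71 (SE 0.29), with an adjusted p of 0.578 by edgeR, where 1 of 9488 genes (0.0105%) was called. An exact permutation test of the CPM gave p = 0.0286, the smallest that 4 and 3 samples allow, and 0.300 after adjustment. In cluster 7, led by genes of the cell cycle, the log2 fold change was 0.96 (SE 0.39) with an adjusted p of 0.979 by edgeR (0% called), and positive replicate 3 held 11.9 CPM against 3.49 to 5.70 in the others. Cluster 13 was also by far the deepest of these, with a median of 38006 UMIs per cell, and 20.4% of its cells held an Esr1 UMI before thinning but 1.56% (0.858 to 2.61) after it.

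The named intracardiac class with the highest Esr1 was microglia, the resident macrophages of the brain. These cells, of which 417 of 451 were biotin positive, held 7.45, 8.05 and 14.6 CPM in their 3 samples, a mean of 10.0 ± 3.97 (SD, n = 3), from 1, 3 and 25 UMIs, and positive replicate 1 held none in 18 cells. Pooled, microglia had 12.1 CPM, and 6.44 CPM without positive replicate 4, so the level leans on that sample. After thinning 2.82% (1.46 to 4.87) of their cells held a UMI. Macrophage cluster 32, with 784 of its 867 cells from biotin positive brain, had 7.85 CPM (5.17 to 11.4). Macrophage cluster 30, led by Vcam1 and Spic, with 451 of its 499 cells from biotin positive bone, had 6.94 CPM (3.33 to 12.8), while the liver macrophages of cluster 29, led by Cd5l and Clec4f, had 1.04 CPM (0.420 to 2.15) and alveolar macrophages 0.356 CPM (0.184 to 0.621). Cluster 17, led by Mcpt8, Cpa3 and Gata2, genes of basophil and mast cell precursors, had 9.24 CPM (6.92 to 12.1). Neutrophils had 0.521 CPM pooled, and 0.109% (0.0648 to 0.173) of their thinned cells held a UMI. T cells stood at 0.205% (0.0885 to 0.403), endothelial cells at 0.181% (0.00457 to 1.00) and alveolar macrophages at 0.161% (0.0593 to 0.351), all near the neutrophil share. From microglia down to nonclassical monocytes each class lay within 1 SD of the next one.

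In cluster 28, with Pf4 and Spp1 among its leading genes, the positive lung samples held 4.59, 1.82, 2.89 and 5.12 CPM and the negative ones held no Esr1 UMI in 33 to 97 cells each. A count of 0 allowed levels of up to 3.801 CPM in negative replicate 4 to 12.8 CPM in the shallowest negative sample. The 4.59 and 5.12 CPM of positive replicates 1 and 4 lay above the lowest of these limits, and every positive level lay below the highest. The exact permutation p was 0.0286, the smallest that 4 and 4 samples allow, and the adjusted p was 0.300 over 42 cluster comparisons. The thinned shares of the organs did not differ past the threshold (SD, n = 4 each). Bone had 0.556% ± 0.410 in the positive against 0.333% ± 0.153 in the negative samples. Its positive replicate 3, the highest by CPM with 102 Esr1 UMIs before thinning, held a UMI in 0 of 547 thinned cells. Counting error alone allows a share of up to 0.548% there, and the 0 also depends on the random draw of the thinning. Without that sample the bone difference was 0.409 percentage points in place of 0.223. Brain had 1.11% ± 0.638 against 0.486% ± 0.224. Liver had 0.421% ± 0.371 against 0.440% ± 0.275, and lung had 0.350% ± 0.312 against 0.352% ± 0.0801. Exact permutation p-values ran from 0.114 in brain to 1.00 in lung. These shares rest on 14 to 36 cells with a UMI per group.

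Esr1 was by far the main oestrogen receptor transcript detected. Esr2 gave 3 UMIs in all intracardiac cells and 10 in all IIA cells, and Gper1 gave 50 and 14. Of the orphan receptors related to it, Esrra, a regulator of mitochondrial genes, was detected in every sample at 12.6 to 53.3 CPM in the intracardiac and 24.3 to 36.4 CPM in the IIA samples, and Esrrb and Esrrg gave at most 43 UMIs per experiment. In the IIA bone Esrra was lower in the positive cells by a log2 value of -0.33 (SE 0.10, adjusted p = 0.0195 by edgeR), a call that was made neither with library totals alone nor without clusters 8, 9, 14 and 15. Of the other steroid receptors, the glucocorticoid receptor Nr3c1 was lower in the positive cells (log2 fold change -0.72, SE 0.09). The mineralocorticoid receptor Nr3c2 had -1.35 (SE 0.71, adjusted p = 0.132 by edgeR). Pgr, the progesterone receptor and a classical oestrogen target, gave 47 UMIs in all IIA cells and 20 in all intracardiac cells.

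Among the genes that work with the receptor, 8 of 10 tested chaperones were higher and none lower in the positive cells of the IIA bone. Of all tested genes 26.9% were higher and 50% were called in either direction. The list had a median log2 fold change of 0.53 against 0.08 over all genes. Fkbp4, an HSP90 cochaperone of steroid receptors, rose by 1.08 (SE 0.19), Hsp90aa1 by 0.93 (SE 0.12), Hsp90ab1 by 0.82 (SE 0.07) and the p23 gene Ptges3 by 0.60 (SE 0.08). Fkbp5 had -0.003 (SE 0.18) and Dnajb1 0.22 (SE 0.21), and neither passed. The count of 8 higher was also found with DESeq2 size factors (50.4% of all genes called), with library totals (57.5%) and without clusters 8, 9, 14 and 15 (46.6%), where 1 was lower. Within cluster 8, where 10.8% of all genes were called, 1 of 10 was called, Fkbp4 at 0.38 (SE 0.12).

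Coactivators were mixed, with 5 of 17 tested members higher and 9 lower in the IIA positive cells and a median of -0.23, beside the 26.9% of all genes that were higher and the 50% called either way. The lower ones included the p160 coactivators Ncoa1 at -0.85 (SE 0.11), Ncoa2 at -0.35 (SE 0.07) and Ncoa3 at -0.70 (SE 0.17), and the acetyltransferases Ep300 at -0.76 (SE 0.06) and Crebbp at -0.49 (SE 0.08). The higher ones included Ppargc1b at 1.37 (SE 0.36) and the arginine methyltransferases Prmt1 at 0.74 (SE 0.12) and Carm1 at 0.48 (SE 0.09). With library totals alone, a scaling that moves the median of all genes from 0.08 to 0.32, the split was 6 higher and 6 lower. Of 14 corepressors 3 were higher, among them Phb2 at 0.74 (SE 0.10), and 3 lower, but with library totals, where 57.5% of all genes were called, 7 were higher and none lower. Of 11 cooperating transcription factors none was higher and 5 were lower, among them Gata3 at -2.94 (SE 0.52) and Sp3 at -0.94 (SE 0.07), and with library totals 1 was higher and 4 lower.

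Oestrogen response targets, a list drawn largely from breast epithelium, did not move one way. Of 26 tested, 9 were higher and 7 lower in the IIA positive cells, with a median of 0.01. The higher members included Igfbp4 at 1.67 (SE 0.11), Tfpi at 1.54 (SE 0.24), Vegfa at 1.48 (SE 0.28), Myc at 1.23 (SE 0.22), Tfrc at 1.08 (SE 0.23) and Cxcl12 at 3.85 (SE 1.22). The lower ones included the neutrophil granule gene Ltf at -2.52 (SE 0.24) and Cd177 at -2.09 (SE 0.23), both known neutrophil genes. Of 8 oestrogen metabolism genes 3 were higher, among them Hsd17b1, which makes oestradiol from oestrone, at 1.89 (SE 0.35), and 1 was lower, but with library totals, where 57.5% of all genes were called, 6 were higher and none lower. These shares stand beside the 50% of all tested genes that were called in this comparison. Within cluster 8, where Esr1 itself was called together with 10.8% of all genes (4.26% as higher), 1 of 14 targets was higher (Tfrc, 0.61, SE 0.13) and 1 lower (Cd177, -1.63, SE 0.31). Of 9 cooperating factors there, none was higher and 3 were lower, Jun at -2.90 (SE 0.50), Fos at -1.04 (SE 0.32) and Sp3 at -0.65 (SE 0.16).

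In the intracardiac organs few of these genes passed. In bone and liver, where edgeR called 0% of all genes, the 8 lists could show no called member. In brain 3 of 27 targets were higher, beside 2.72% of all genes, Tgfa at 5.36 (SE 0.69), Ccnd1 at 1.94 (SE 0.40) and Tfpi at 1.77 (SE 0.31). In lung 5 of 28 targets were higher, beside 11.4% of all genes, among them Krt19 at 4.75 (SE 0.88), an epithelial keratin, and Sgk1 at 3.07 (SE 0.50), and 3 were lower. In lung 4 of 8 metabolism genes were higher, among them Hsd17b4 at 1.49 (SE 0.20), Hsd17b12 at 0.89 (SE 0.20) and Arsa at 0.81 (SE 0.23). With library totals, 5 of 27 targets were higher in brain, where 6.09% of all genes were then called. In lung, where 17.6% were then called, 8 of 28 targets were higher and 2 lower, and 6 of 8 metabolism genes were higher. The 10 epithelial markers together reached 93.1 to 266 CPM in the positive and 9.62 to 18.3 CPM in the negative lung samples, and their part in these changes was not tested.

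The genes whose level over the IIA classes was most like that of Esr1 were Cep55 (Pearson r = 0.86 over 18 classes), Ube2w (0.86), Xpo7 (0.84), Sptbn1 (0.83), Atrx (0.83), Ptbp2 (0.82), Zfp280c (0.82) and 1700109H08Rik (0.82). Cluster 15 was the class with the highest level for 7 of these 8 genes, and B precursors for Cep55, a gene of cell division. In the intracardiac series they were Tyw3 (r = 0.79 over 23 classes), BC035044 (0.77), Bin1 (0.76), Gm17259 (0.76), Nek3 (0.75), Gm15706 (0.75), Ankzf1 (0.73) and Borcs7 (0.72), of which 5 were highest in microglia. No gene was on both lists. The classes share libraries and differ in depth, and these values describe the classes only.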

How the data were processed

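The authors deposited single-cell RNA-seq as 1 matrix of UMI counts per sample, with the IIA samples in 1 pooled matrix. The count software was cellranger 6.1.2 for the 32 intracardiac samples and 7.1.0 for IIA bone, per the file headers, and the submitters' processing notes name mm10 and Seurat. The sources used here do not give the annotation or the intron setting. A few genes are not reported here by name. Gene positions came from GENCODE M21 on mm10.

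Cells with at least 500 UMIs, 200 genes and at most 15% mitochondrial UMIs were kept. IIA cells were assigned to a hashtag with at least 10 counts and 3 times the second, which gave 22685 of 26666 barcodes, and hashtags were matched to the authors' list by number. Doublets were not removed. Intracardiac matrices with the same replicate number shared 0 barcodes over 112 pairs, and other pairs shared 0 to 7. Clusters came from scanpy 1.11.5 (2000 variable genes, 30 components, Leiden resolution 1), and were named from marker lists, so a class name means resemblance only. Clusters led by other genes stayed unnamed.

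Counts were summed per sample and tested with edgeR 4.0.16 (quasi-likelihood, TMM, Benjamini-Hochberg over all tested genes, threshold 0.05). DESeq2 1.42.0 was an alternative. On counts simulated with a fixed dispersion, 50.5% of genes changed 2 times and all changed 4 times were recovered for the IIA comparison, and 34.3% and 99.0% for bone. Of genes changed 2 times, 32.3% were recovered for brain, 29.3% for lung and 16.3% for liver. The changed genes were drawn from all tested genes, so these rates do not give the recovery of a gene as sparse as Esr1. Levels per class used samples with at least 20 cells. Intervals are exact at 95% and cover counting error only, with 3 counts as the limit for a 0. Shares used cells thinned to 2000 UMIs by a random draw, made once per depth. The reported permutation tests were exact and two-sided, over samples that were not paired by number.

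Samples of the same number deviated together in bone, brain and liver (correlations 0.290 to 0.774), but not in every pair of lung (lowest -0.209) or IIA bone (lowest 0.0958). Intracardiac samples of the same number shared a multiplexing tag list, and numbers 3 and 4 had the same list as each other. Esr1 was always named, with the 8 genes of most similar pattern per experiment. The list members named were mostly among those past the threshold or the up to 4 of highest level per list, and not every such member is named. The gene, the lists and the tests were chosen with earlier results of these data known. Permutation tests of CPM, fits of single clusters, fits without clusters and pooled shares without a sample were added after seeing the data.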

Additional observations from a re-analysis of the deposited data

Results flagged for a closer look

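In IIA bone the thinned share of cells with an Esr1 UMI moved in opposite directions in 2 cell classes: it was higher in the positive sample of 6 of 6 injections in granulocyte precursors and lower in 6 of 6 in neutrophils, by -0.882 percentage points. Neutrophils had 0.198% ± 0.486 in the positive and 1.08% ± 0.343 in the negative samples (SD, n = 6 each, exact permutation p = 0.0130, adjusted p = 0.156 over 24 class comparisons). At 4000 UMIs per cell the neutrophil difference had the opposite sign, at 2.65 percentage points, and neither class passed after adjustment (adjusted p = 0.0519 in granulocyte precursors). The difference between the classes was not tested, and the positive neutrophils held a UMI in only 2 cells after thinning.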

How the results depend on the processing

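Of 200 alternatives to the reported values, 180 kept the direction and the side of the threshold (or, with no test, stayed within 1 SD), as did 203 of 218 omissions of a single sample, and of 47 alternative values of the class levels none moved by more than 1 SD. For shares of cells, this side was read from the unadjusted permutation p at 0.05, not from the adjusted one. In IIA bone the log2 fold change of Esr1 was past the threshold in 11 of 12 alternatives. It reversed to -0.14 without the clusters led by Elane, Gria3 and long genes, where those cells themselves were left out. In liver it reversed to -0.039 with the replicate block, to -0.14 without granulocyte precursor clusters and to -0.011 with the UMIs of long genes as total, and omissions of 1 sample gave -0.45 (without positive 3) to 0.50 (without positive 2). In neutrophils of IIA bone omissions gave -0.46 (without positive 5) to 0.0089 (without positive 6). In lung they gave -1.33 (without positive 4) to -0.40 (without positive 2). Among negative sorts, bone against the other organs reversed to -0.027 with library totals and liver to -0.043 with the replicate block. The cause of these reversals was not tested, and no value that reversed had passed the threshold, except that of all IIA cells.

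Shares of cells with an Esr1 UMI depended on the thinning depth. In bone the difference was 0.314 percentage points at 1000 UMIs and 3.93 without thinning (exact permutation p = 0.0286 for both, against 0.371 at 2000 UMIs), and omissions gave 0.115 (without positive 2) to 0.409 (without positive 3). In liver it was 0.0355 at 1000 UMIs, 0.0496 at 4000 and 0.199 without thinning, and omissions gave -0.132 to 0.121. In lung it was 0.169 at 4000 and 0.119 without thinning, and omissions gave -0.153 to 0.0857. In brain omissions gave 0.443 to 0.920, the highest without positive 1 (exact permutation p = 0.0286). Classical monocytes of bone reversed to 1.47 at 1000 UMIs, and neutrophils of IIA bone to 2.65 at 4000 UMIs, where 3 positive samples remained. In cluster 28 of lung omissions gave 0 to 0.499. In macrophages of IIA bone the difference was 6.999 at 4000 UMIs and 4.39 without negative 4, where the exact permutation p was 0.0476. The cause was not tested.

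With the replicate block Esr1 had a log2 fold change of 0.99 in bone (adjusted p = 0.184 by edgeR), 0.92 in brain (0.181), -0.89 in lung (0.279) and 1.12 in IIA bone (0.0154), and no call on Esr1 changed. The block moved the count of all called genes from 0 to 11 in bone and from 321 to 725 in brain. In lung 2 of 4 and in IIA bone 3 of 6 positive samples correlated best with the negative sample of their own number. DESeq2 called 53 genes in bone, 1225 in brain and 431 in liver. Intracardiac thinned shares rest on 14 to 36 cells with a UMI per group, and the smallest difference they could show was not tested.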

Other observations

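Within the intracardiac series, cluster 20, led by the B lineage genes Vpreb3 and Rag1, had 7.25 CPM of Esr1 (exact Poisson 95% interval 3.32 to 13.8, counting error only), with 9 UMIs in 361 cells. B cells of cluster 3 had 3.57 CPM (2.62 to 4.74). Natural killer cells, the innate lymphocytes that kill without prior priming, had 4.99 CPM (3.23 to 7.36), and 6 of their 13 samples held no Esr1 UMI. Osteoclasts of the IIA bone, the cells that resorb bone and a known target of oestrogen, had 5.41 CPM (1.98 to 11.8) from 6 UMIs in 56 cells, and plasma cells had 6.09 CPM (2.24 to 13.3). Stromal fibroblasts of the IIA bone had 30.8 CPM (25.8 to 36.4), and 37.3% of their 201 cells held an Esr1 UMI at a median depth of 19862 UMIs.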
